A study of Bos taurus with 179 samples.

Results

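Transcripts of the cyclins, the cyclin-dependent kinases (CDKs) and the CDK inhibitors were examined in growing bovine (Bos taurus) oocytes. The genes were chosen by symbol from the study's list of genes expressed at every stage of growth, where a gene with a zero count in too large a share of a group's oocytes was taken as not expressed in that group. Symbols made of CCN, 1 letter and at most digits after it, and symbols beginning with CDK and digits, with CDKL or with CDKN were taken, and CCNB1, CCNB2, CCNB3, CDK1 and the symbols beginning with CDK5RAP or CDK2AP were left out. The 47 genes described are from the 1997 symbols in the copy of that list used here, which left out 8323 further entries, and the count table holds 21218 gene IDs. Detection in every group was used to choose the genes and is not a result. A stricter reading of the symbols would leave out CDK11B and CDK5R1 and keep 45 genes. CDKN2AIP and CDKN2AIPNL carry CDKN in their symbols but encode a protein that binds the inhibitor CDKN2A and a relative of that protein, and are treated apart from the inhibitors.

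CDKs are protein kinases that are inactive without a partner, in most cases a cyclin, and inhibitor proteins can block the pair. Cyclins A, D and E with CDK2, CDK4 or CDK6 drive DNA replication and division in somatic cells, whereas cyclins C, H, K, L and T with CDK7, CDK8, CDK9, CDK12 and CDK13 act on RNA polymerase II during transcription. A growing oocyte is arrested in prophase of meiosis I and does not replicate its DNA. It transcribes actively for much of its growth and stores transcripts for maturation and for the embryo. Per the study, transcription ceases when growth ends and is likely reduced in the largest oocytes.

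Single oocytes from abattoir ovaries were denuded of their surrounding cells, measured, and sequenced from polyadenylated RNA. No treatment was compared, and the 8 groups were set by diameter. Per the methods, fully grown oocytes were aspirated from visible follicles. Growing oocytes were then freed by slicing the ovaries in a medium that held cilostamide. The labels do not give the route of an oocyte, so route and diameter cannot be told apart. The groups were < 60 μm (21 oocytes), 60–69 μm (25), 70–79 μm (23), 80–89 μm (24), 90–99 μm (21), 100–109 μm (18), 110–119 μm (19) and > 120 μm (14). The libraries were made in replicate 1 (97 oocytes, reads of 150 bp) and replicate 2 (68 oocytes, reads of 75 bp), and the labels name no animal, so the oocytes of a group may come from the same animals and p-values measure the spread between these samples. Counts were summed per size group and replicate into 16 sums of 3 to 18 oocytes, and values are given as CPM, a gene's counts per 1000000 counts of its sum, with the library size scaled by the TMM method of edgeR. CPM is a share of the counted reads. The amount of mRNA in an oocyte, which enlarges during growth, was not measured, so a higher CPM means a larger share and a lower CPM a smaller share of the polyadenylated pool captured. Values of different genes are not compared, since the files give no gene length.

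Depth ranged from 277126 to 8038061 counts per oocyte (median 1763520) and from 4467434 to 46545515 counts per sum. In the 100–109 μm sum of replicate 1, 1 oocyte gave 7856854 counts, or 52.9% of the sum, and for the 5 genes with their highest sum of replicate 1 there (CCND3, CCNF, CCNP, CDK10 and CDK20) a value without it is given as well. In all, the sum of 10 of the 47 genes moved by over 1.5 times without it: CCND3, CCNF, CDK5R1, CDK9, CDK10 and CDK20 were lower and CCNG1, CCNG2, CDK17 and CDKN1B higher. All 17 genes called in the trend below were also called without it. The defining oocyte genes BMP15, BTG4, BCAR4, CPEB1 and ACTL8 summed to 4702 to 10119 CPM in every sum, and 4 of the 5, all but CPEB1, rose with diameter. The 5 granulosa genes summed to 8.54 to 167 CPM, highest in the 100–109 μm sum of replicate 1, and nearly all of it was CLU and CD44, while FSHR, AMHR2 and CYP11A1 were at 0 to 3.62 CPM. CLU rose with diameter (slope 0.23 log2 per 10 μm, SE 0.087, adjusted p = 0.0462, edgeR), while CD44 (0.116, SE 0.068) and FSHR (−0.114, SE 0.162) did not pass the test. COL1A2 of the theca and stroma list, at 0.147 to 9.38 CPM, also rose (slope 0.266, SE 0.086, adjusted p = 0.0205, edgeR), while ACTA2 (slope −0.154, SE 0.091) and CALD1 (−0.098, SE 0.136) did not pass the test and COL1A1 and COL3A1 were at 0 to 0.998 CPM. The theca and stroma list summed to 5 to 27.8 CPM, the endothelium list to 2.13 to 9.04 and the macrophage list to 0 to 1.29. The part of these cells in the results below was not tested.

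The slope of each gene on diameter was the leading comparison, fitted to the 16 sums with replicate as a block (edgeR's quasi-likelihood test, Benjamini-Hochberg adjustment over all 14087 genes tested, called at an adjusted p under 0.05). All 47 genes passed the filter on low counts. With increasing diameter 10 of the 47 genes rose, 7 fell and 30 did not pass the test. The 17 genes called are 36.2% of the 47, beside 33% of all genes tested (14.8% rose and 18.1% fell), so the share is near the background. The median slope over the 47 genes was 0.000 log2 CPM per 10 μm, beside −0.016 over all genes, and the median size of the slope regardless of sign was 0.084 beside 0.096. The largest slope upwards was that of CCNE2 and the largest downwards that of the phosphatase gene CDKN3. When each replicate was fitted alone, 36 of the 47 genes had the same sign of slope in both, the 17 called, which were chosen on both replicates, among them. The share over all genes was not counted, so the 36 are no result about the 47.

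**Figure D1:**
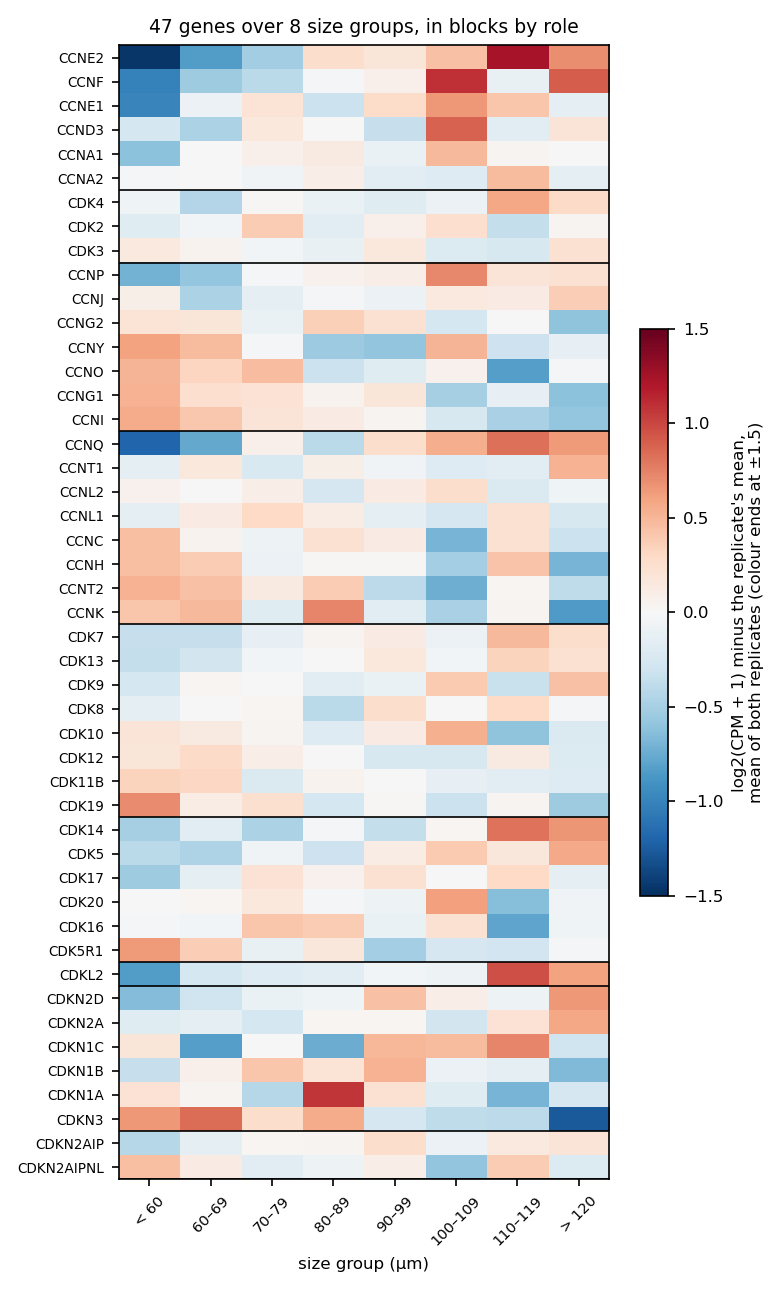
Heatmap of the 47 genes (rows, in blocks by role in the order of the plot of slopes) over the 8 size groups (columns, diameter in μm). Colour is log2(CPM + 1) minus the mean of the replicate, averaged over both replicates, and runs from −1.45 to 1.23. Blue to red from left to right marks rows such as CCNE2, CCNQ and CDKL2, and red to blue marks CCNI and CDKN3.

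**Figure D2:**
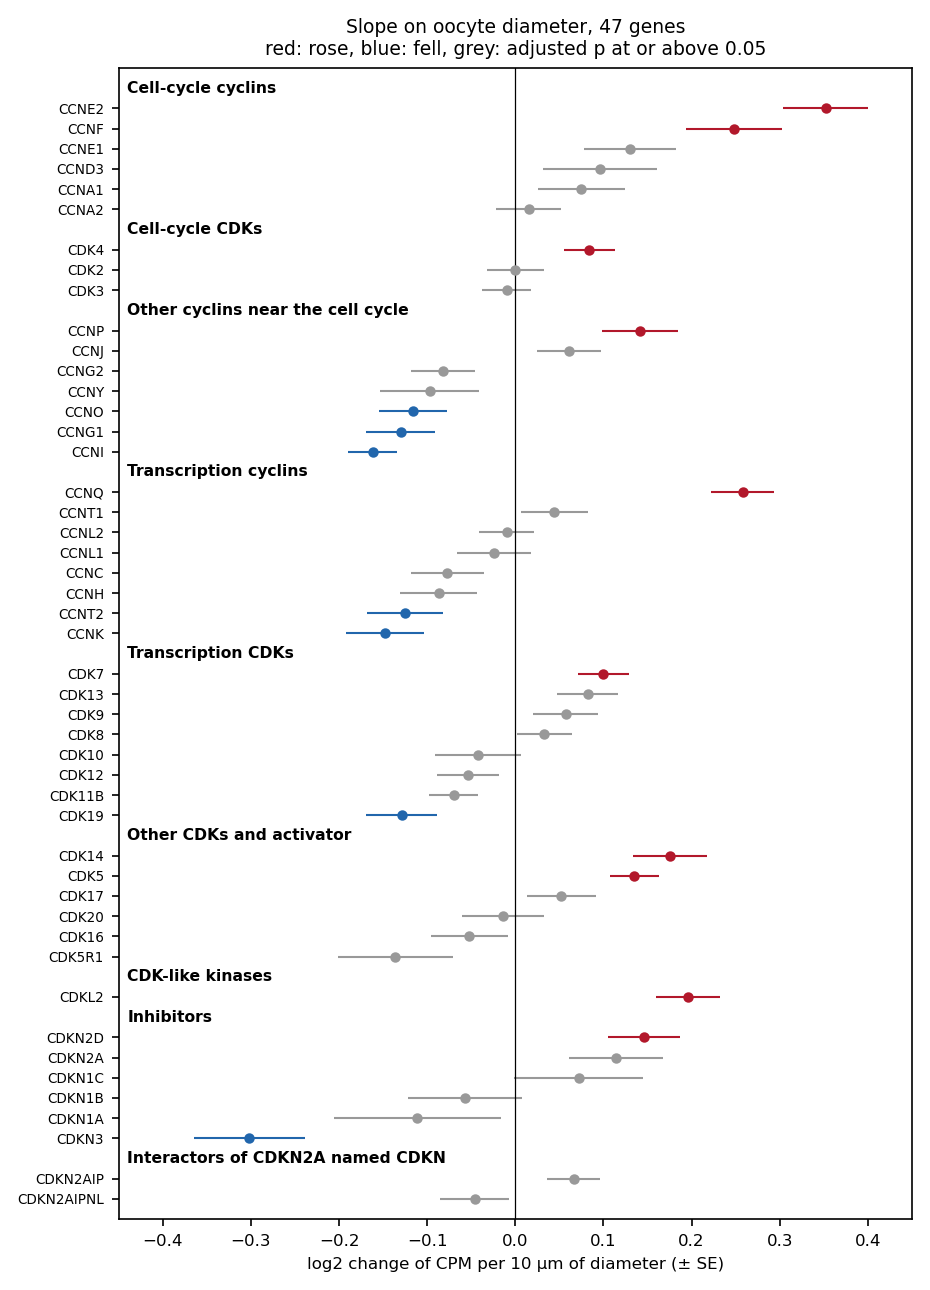
Slope of each of the 47 genes on diameter, in log2 CPM per 10 μm with its standard error, in blocks by role. The 10 red points rose, the 7 blue points fell and the 30 grey points did not pass the test. The points reach from −0.30 (CDKN3) to 0.35 (CCNE2).

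Of the 6 cell-cycle cyclins, CCNE2 and CCNF rose, 4 did not pass the test and none fell. CCNE2 encodes cyclin E2, a partner of CDK2 at the start of DNA replication. From the smallest to the largest size group its CPM in replicate 1 was 7.57, 10.6, 14.9, 21.7, 20.5, 20, 54.6 and 20.7. The sums of replicate 2 were 7.72, 14.1, 16.1, 34.7, 32.7, 48, 54.6 and 67.3. All sums of oocytes under 70 μm lay below all sums of 110 μm or more. In replicate 1 the 110–119 μm sum stood above both of its neighbours, whereas in replicate 2 the largest group was highest. Its slope was 0.35 log2 per 10 μm (SE 0.048, adjusted p = 1.31e-05, edgeR), and it was called in each replicate alone, with slopes of 0.33 (SE 0.079) and 0.41 (SE 0.050). Between oocytes of < 70 μm and of ≥ 110 μm it was 4.84-fold higher in the larger (log2 2.28, SE 0.28, adjusted p = 1.24e-05, edgeR). In single oocytes of replicate 2, 1 of 68 had no CCNE2 count, and in replicate 1, 4 of 97.

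CCNF encodes cyclin F, a cyclin that works as the substrate receptor of a ubiquitin ligase instead of activating a CDK. Its CPM in replicate 1 was 8.45, 18.7, 20.4, 37, 33, 81, 26.3 and 65.4 over the groups in order of size. Replicate 2 gave 11.1, 10.4, 11.6, 11, 14.3, 25.3, 13.7 and 23.8. Both replicates had their highest value at 100–109 μm, and in both the 110–119 μm sum was lower than the sums on either side. Without the deepest oocyte the 100–109 μm sum of replicate 1 was at 49.1 CPM and the > 120 μm sum, at 68.3 CPM, was highest there. The slope was 0.25 (SE 0.054, adjusted p = 0.00132, edgeR), and 0.24 without that oocyte. It was called in each replicate alone, with slopes of 0.378 (SE 0.085) in replicate 1 and 0.161 (SE 0.054) in replicate 2. CCND3, the D-type cyclin in the list, was also highest at 100–109 μm in both replicates, at 21.5 and 8.17 CPM, the former 14.1 CPM and below the > 120 μm sum without the deepest oocyte. Its values scattered between 2.55 and 16.5 CPM elsewhere, and its slope of 0.096 (SE 0.065) did not pass the test (adjusted p = 0.268, edgeR).

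CCNE1, the paralog of CCNE2, had a slope of 0.13 (SE 0.052, adjusted p = 0.0577, edgeR). Its lowest sum was the < 60 μm sum in both replicates, at 12 and 7.61 CPM, and its highest was 41 CPM at 110–119 μm in replicate 1 and 28.2 CPM at 100–109 μm in replicate 2. In replicate 2 its > 120 μm sum, at 9.55 CPM, was back near the smallest oocytes. CCNA2, the cyclin A of somatic cells, ranged from 409.5 to 1004 CPM with a slope of 0.015 (SE 0.037). CCNA1, the cyclin A of the germ line, had a slope of 0.19 (SE 0.056) in replicate 1 and −0.033 (SE 0.073) in replicate 2.

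Of the 3 kinases of the cell cycle, only CDK4, a partner of D-type cyclins, passed the test, and it rose. Its CPM in replicate 1 was 80.3, 67.3, 83.9, 77.2, 67.3, 90.9, 129.05 and 109.9, and in replicate 2 it was 59.9, 42.6, 64.8, 59.5, 60.6, 51.3, 92.8 and 71.8. The 110–119 μm sum was highest in both, followed by the > 120 μm sum. The slope was 0.084 (SE 0.029, adjusted p = 0.0326, edgeR), and with all deposited oocytes of at least 100000 counts it was −0.013. It was called in neither replicate alone, with slopes of 0.118 (SE 0.045) in replicate 1 and 0.077 (SE 0.040) in replicate 2. CDK2, the partner of cyclins A and E, had a slope of 0.000 with an SE of 0.032, and all its sums lay between 71.7 and 196 CPM. CDK3 had a slope of −0.010 (SE 0.028). Thus the slope of CCNE2 stood beside a slope near 0 of its kinase, although the difference between both slopes was not tested.

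**Figure D3:**
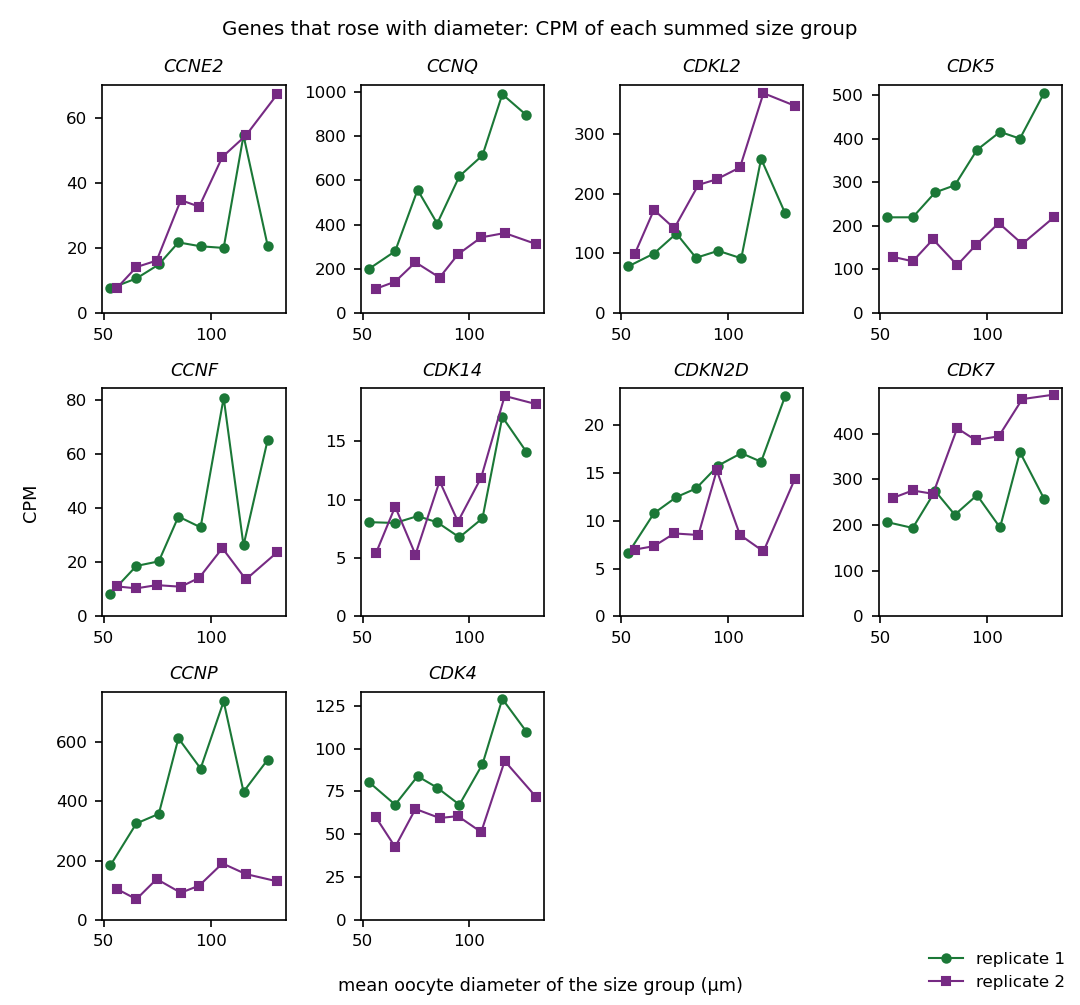
CPM of the 10 genes that rose, in each sum, against the mean diameter of the oocytes in the sum (μm). Green circles are replicate 1 and purple squares replicate 2, joined in order of size. CCNE2 reached 67.3 CPM in the largest oocytes of replicate 2 from 7.72 in the smallest, and CCNQ 990 CPM at 110–119 μm of replicate 1 from 200.

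The 8 transcription cyclins included 1 that rose and 2 that fell. CCNQ, the cyclin partner of CDK10, rose. Its CPM from the smallest to the largest group was 200.4, 279.3, 557.3, 404.7, 619.1, 713.4, 990.4 and 895.6 in replicate 1. The corresponding values of replicate 2 were 109.5, 141.6, 229.4, 160.2, 265.2, 342.1, 361.7 and 311.96. The lowest sum was < 60 μm and the highest 110–119 μm in both replicates, and sums under 70 μm did not overlap those of 110 μm or more. The slope was 0.26 (SE 0.036, adjusted p = 1.74e-05, edgeR), and the larger oocytes were 3.28-fold higher between < 70 and ≥ 110 μm (log2 1.71, SE 0.19, adjusted p = 4.7e-06, edgeR). CDK10 itself, which ranged from 7.69 to 43.3 CPM (its highest sum was at 24.5 CPM without the deepest oocyte), had a slope of −0.042 (SE 0.049) and did not pass the test.

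CCNK, the cyclin that activates CDK12 and CDK13, fell. In replicate 1 the sums were 168.9, 172.5, 90.9, 258.8, 113.7, 74.2, 146.3 and 72.7 CPM. In replicate 2 they were 233.1, 250.3, 187.4, 233.9, 153.5, 149.3, 159.1 and 92.3 CPM. The > 120 μm sum was lowest in both replicates, and the 80–89 μm sum stood high in both. The slope was −0.15 (SE 0.044, adjusted p = 0.012, edgeR), and it lost its call without the 60–69 μm sum of replicate 2 (−0.126) or either > 120 μm sum (−0.122 and −0.115). Replicate 1 alone had a slope of −0.109 (SE 0.079) and did not pass the test. Replicate 2 alone had a slope of −0.158 (SE 0.036, adjusted p = 0.00678, edgeR). CDK12 had a slope of −0.054 (SE 0.035) and CDK13 of 0.082 (SE 0.035), and neither passed the test.

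CCNT2, a cyclin of the elongation kinase CDK9, fell in the fit of both replicates. Its CPM in replicate 1 was 75, 60.9, 49.8, 55.4, 33.3, 15.4, 37.7 and 21.1. The values of replicate 2 were 101.3, 110.7, 88, 110.8, 62.6, 81.7, 99.8 and 98.5. The decline in replicate 1 had a slope of −0.215 (SE 0.062), and in replicate 2 the slope was −0.019 (SE 0.037). The difference between these slopes was 0.22 (SE 0.072), with an unadjusted p of 0.00603 and an adjusted p of 0.289 (edgeR). The joint slope was −0.13 (SE 0.043, adjusted p = 0.0292, edgeR), and it did not pass the test in 11 of 26 alternative fits. Among these were the fits without 1 of 9 sums (< 60, 60–69, 70–79, 90–99 and > 120 μm of replicate 1, and 60–69, 80–89, 90–99 and 100–109 μm of replicate 2), with slopes from −0.114 to −0.093. CCNT1, the other cyclin T gene, had a slope of 0.044 (SE 0.038), and CDK9 of 0.057 (SE 0.037).

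The remaining transcription cyclins CCNC, CCNH, CCNL1 and CCNL2 had slopes from −0.087 to −0.010 and did not pass the test. CCNH, which with CDK7 forms the CDK-activating kinase, showed 596 CPM in the 110–119 μm sum of replicate 1 beside 169 and 197 CPM in the sums on either side. In replicate 2 it ranged from 222 CPM at > 120 μm to 478 CPM at 60–69 μm, with a slope in that replicate alone of −0.12 (SE 0.033, adjusted p = 0.0244, edgeR). Replicate 1 alone had a slope of −0.032 (SE 0.077) and did not pass the test.

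Among the 8 transcription kinases, CDK7 rose, CDK19 fell and 6 did not pass the test. CDK7, the kinase of the general transcription factor TFIIH and the activator of other CDKs, was at 206.5, 193.6, 274.4, 222.4, 265.4, 194.6, 359.6 and 257.7 CPM in replicate 1. The sums in replicate 2 were 259.9, 275.6, 268.3, 411.8, 385.9, 394.2, 475.6 and 485.3 CPM. Within each replicate the sums of 110 μm or more lay above those under 70 μm. The slope was 0.10 (SE 0.029, adjusted p = 0.0108, edgeR), a 1.66-fold difference between < 70 and ≥ 110 μm (log2 0.73, SE 0.20, adjusted p = 0.0112, edgeR).

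CDK19, a kinase of the Mediator complex, was at 57.1, 26.9, 24, 21.1, 19.3, 16.1, 33.3 and 18.6 CPM in replicate 1. Those of replicate 2 were 44.5, 40.3, 54, 29.8, 48.6, 35.7, 29.5 and 23.1 CPM. The < 60 μm sum of replicate 1, which holds 3 oocytes, was the highest of all, and without it the slope changed from −0.13 (SE 0.040, adjusted p = 0.0172, edgeR) to −0.068 and was no longer called. The call was also lost without the 110–119 μm sum of replicate 2 (−0.109) or either > 120 μm sum (−0.117 and −0.105). Neither replicate alone passed the test, with slopes of −0.112 (SE 0.063) in replicate 1 and −0.114 (SE 0.047) in replicate 2. CDK8, its paralog, had a slope of 0.033 (SE 0.031). CDK11B, a kinase tied to RNA splicing, had a slope of −0.070 (SE 0.028, adjusted p = 0.062, edgeR).

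Of the 7 other cyclins near the cell cycle, CCNI, CCNG1 and CCNO fell, CCNP rose and 3 did not pass the test. CCNI, an atypical cyclin best known from postmitotic cells, was at 50.1, 44.3, 43.2, 27, 28.7, 28.9, 22.8 and 23.4 CPM in replicate 1. In replicate 2 it was 123.7, 111.8, 85.3, 124.3, 103.5, 69.3, 61.6 and 52.7 CPM. Replicate 2 was higher throughout, and within each replicate the sums under 70 μm were above those of 110 μm or more without overlap. The slope was −0.16 (SE 0.028, adjusted p = 0.00019, edgeR), and it was alike in each replicate alone, −0.14 (SE 0.042) and −0.16 (SE 0.039). Oocytes of ≥ 110 μm were 2.05-fold lower than those of < 70 μm (log2 −1.03, SE 0.21, adjusted p = 0.00136, edgeR).

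CCNG1 encodes cyclin G1, a target of the tumour suppressor p53. In replicate 1 its CPM was 931.4, 763.5, 638.3, 522.4, 616.8, 249.8, 427.3 and 234.9, a fall of 3.96-fold from the highest to the lowest sum, and without the deepest oocyte the 249.8 CPM at 100–109 μm was 428.9. The sums of replicate 2 were 606.7, 509.8, 581.00, 569.1, 574.4, 545.9, 544.6 and 498.8, a range of 1.22-fold. In both the < 60 μm sum was highest and the > 120 μm sum lowest. The joint slope was −0.13 (SE 0.039, adjusted p = 0.013, edgeR), made of −0.22 (SE 0.056) in replicate 1 and −0.019 (SE 0.027) in replicate 2. The difference of 0.22 (SE 0.060) had an unadjusted p of 0.00124, the smallest among the 47 genes, and an adjusted p of 0.214 (edgeR). Without the < 60 μm or the > 120 μm sum of replicate 1 the joint slope was −0.099 or −0.090 and did not pass the test. CCNG2, a paralog of CCNG1 and the neighbour of CCNI in the RefSeq gene order (assembly ARS-UCD2.0), with no protein-coding gene between them, had a slope of −0.082 (SE 0.036, adjusted p = 0.0871, edgeR).

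CCNO is known for its role in the formation of multiple cilia. It was at 102.3, 114.9, 102.7, 86.7, 77.4, 98.2, 56.1 and 96.1 CPM in replicate 1. Replicate 2 gave 51.4, 35, 47.6, 18.5, 25.5, 28.2, 13.8 and 25.4 CPM. The 110–119 μm sum was the lowest in both. The slope was −0.12 (SE 0.039, adjusted p = 0.0248, edgeR), and it did not pass the test in 12 of 26 alternative fits, among them the fit to 250000 counts per oocyte (−0.059). Replicate 1 alone, with a slope of −0.039 (SE 0.046), did not pass either. Replicate 2 alone had a slope of −0.169 (SE 0.055, adjusted p = 0.0422, edgeR). The call was also lost without 1 of 9 sums (60–69, 70–79, 90–99 and 110–119 μm of replicate 1, and < 60, 60–69, 90–99, 110–119 and > 120 μm of replicate 2), with slopes from −0.118 to −0.080.

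CCNP rose. In replicate 1 it was at 184.2, 324.8, 357.1, 611.6, 509.7, 735.8, 431.6 and 539.4 CPM. The values of replicate 2 were 103.8, 69.7, 137.5, 91.5, 115.4, 190.3, 154.4 and 129.8 CPM. The highest sum was 100–109 μm in both replicates, also without the deepest oocyte (707.1 CPM in replicate 1). Replicate 1 was above replicate 2 in every size group. The slope was 0.14 (SE 0.043, adjusted p = 0.0148, edgeR), and without the < 60 μm sum of replicate 1 it was 0.11 and not called. It was called in neither replicate alone, with slopes of 0.208 (SE 0.069) in replicate 1 and 0.108 (SE 0.046) in replicate 2. CCNJ, a cyclin known from the ovary of flies, had a slope of 0.061 (SE 0.036), with −0.0080 (SE 0.043) in replicate 1 and 0.16 (SE 0.042) in replicate 2. CCNY, the membrane-bound partner of CDK14 and CDK16, had a slope of −0.097 (SE 0.056, adjusted p = 0.193, edgeR) at 2.30 to 9.04 CPM.

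**Figure D4:**
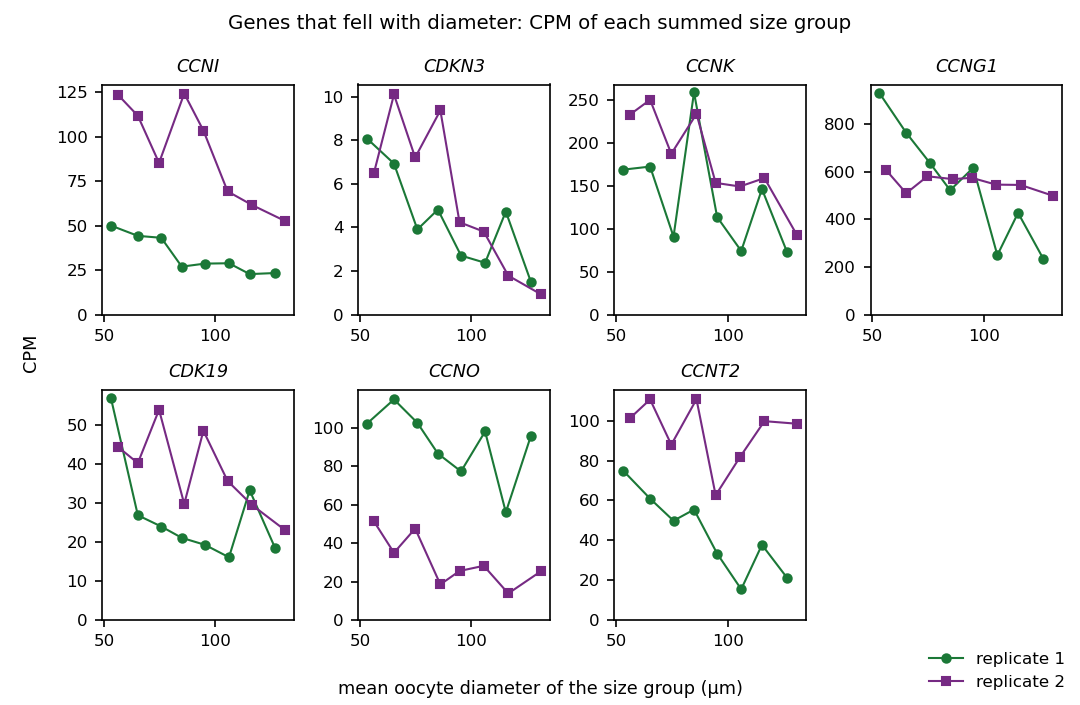
CPM of the 7 genes that fell, in each sum, against the mean diameter of the oocytes in the sum (μm). Green circles are replicate 1 and purple squares replicate 2. CDKN3 ends at 1.49 and 0.932 CPM in the largest oocytes, and CCNG1 falls from 931 to 235 CPM in replicate 1 and lies between 499 and 607 CPM in replicate 2.

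Of the 6 other CDKs and their activator, CDK5 and CDK14 rose and 4 did not pass the test. CDK5 is the kinase of neurons that is activated by CDK5R1 in place of a cyclin. Its CPM in replicate 1 was 219.8, 219.9, 277.2, 293.5, 374.9, 416.4, 400.8 and 505.5 from the smallest to the largest oocytes. The sums in replicate 2 were 128.7, 118.7, 169.2, 109.9, 155.2, 206.7, 158.6 and 219.5. The > 120 μm sum was highest in both, and all sums of replicate 1 lay above all sums of replicate 2. The slope was 0.13 (SE 0.028, adjusted p = 0.000821, edgeR). CDK5R1 was near the limit of detection, at 0.957 to 5.10 CPM with 12 to 241 counts per sum, and 39 of 165 oocytes had no count. Its slope was −0.14 (SE 0.065, adjusted p = 0.11, edgeR), and the < 60 μm sum was its highest in both replicates.

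CDK14, a partner of cyclin Y that phosphorylates a Wnt coreceptor, was at 8.08, 8.01, 8.6, 8.07, 6.78, 8.41, 17.1 and 14.1 CPM in replicate 1. Those of replicate 2 were 5.41, 9.41, 5.3, 11.6, 8.13, 11.9, 18.9 and 18.2 CPM. In both replicates the sums of 110 μm or more were above all smaller ones. The slope was 0.18 (SE 0.042, adjusted p = 0.003, edgeR). CDK16 and CDK17, which belong to the same branch of the family, had slopes of −0.052 (SE 0.044) and 0.052 (SE 0.039) and did not pass the test. In replicate 2 alone CDK17 had a slope of 0.13 (SE 0.035, adjusted p = 0.0158, edgeR), and in replicate 1 of −0.0090 (SE 0.061).

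CDKL2, a CDK-like kinase, rose. It was at 77.8, 99.5, 133.04, 92.3, 104.1, 91.5, 258.2 and 166.6 CPM in replicate 1. In replicate 2 it was 98.7, 172.7, 141.7, 214.5, 223.98, 243.8, 368.2 and 347.1 CPM. The 110–119 μm sum was highest and the < 60 μm sum lowest in both. The slope was 0.20 (SE 0.036, adjusted p = 0.000322, edgeR), and between < 70 and ≥ 110 μm the larger oocytes were 2.54-fold higher (log2 1.34, SE 0.22, adjusted p = 0.000218, edgeR).

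Of the 6 inhibitors, CDKN2D rose, CDKN3 fell and 4 did not pass the test. CDKN3 encodes a phosphatase that removes the activating phosphate of CDK2, and its transcript had the steepest fall of the 47. In replicate 1 it was at 8.08, 6.93, 3.91, 4.82, 2.71, 2.38, 4.73 and 1.49 CPM. Replicate 2 gave 6.49, 10.1, 7.21, 9.37, 4.24, 3.81, 1.79 and 0.932 CPM. The > 120 μm sum was lowest in both, and every sum under 70 μm was above every sum of 110 μm or more. The slope was −0.30 (SE 0.063, adjusted p = 0.00103, edgeR), and oocytes of ≥ 110 μm were 3.63-fold lower than those of < 70 μm (log2 −1.86, SE 0.42, adjusted p = 0.0028, edgeR). Replicate 1 alone had a slope of −0.212 (SE 0.079, adjusted p = 0.0823, edgeR) and did not pass the test. Replicate 2 alone had a slope of −0.384 (SE 0.096, adjusted p = 0.0115, edgeR). The gene had 4 to 326 counts per sum and no count in 30 of 165 oocytes, so the value of a single oocyte is uncertain.

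CDKN2D, an inhibitor of CDK4 and CDK6, was at 6.61, 10.8, 12.5, 13.4, 15.8, 17.1, 16.2 and 23.1 CPM in replicate 1. The values of replicate 2 were 7, 7.36, 8.69, 8.53, 15.3, 8.54, 6.81 and 14.4 CPM. In replicate 1 the lowest sum was the smallest group and the highest the largest group, whereas in replicate 2 the 110–119 μm sum was lowest and overlapped the smallest oocytes. The slope was 0.15 (SE 0.041, adjusted p = 0.00951, edgeR), 0.22 (SE 0.049) in replicate 1 and 0.098 (SE 0.065) in replicate 2.

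CDKN1B, the inhibitor p27 of cyclin E and CDK2, did not pass the test for diameter (slope −0.057, SE 0.065, adjusted p = 0.537, edgeR) but separated the replicates. In replicate 1 its sums were 34.3, 49.3, 91.1, 37.3, 48.9, 27.7 (48.2 without the deepest oocyte), 23 and 15 CPM. In replicate 2 they were 703.7, 880.7, 767.1, 1388, 1653, 1238, 1382 and 990.9 CPM. The ranges did not overlap, and replicate 2 was 28.8-fold higher (log2 4.85, SE 0.32, adjusted p = 4.95e-10, edgeR). In single oocytes it ran from 2.66 to 166 CPM (median 44.9) in the 97 oocytes of replicate 1 and from 86.9 to 3715 CPM (median 845) in the 68 of replicate 2, so that single oocytes overlapped although the sums did not. Its slope was −0.22 (SE 0.091) in replicate 1 and 0.10 (SE 0.049) in replicate 2. The replicates differ in read length, in library preparation and in the oocytes used, and may differ in animals, which cannot be told apart here. The inhibitors CDKN1A, CDKN1C and CDKN2A were low, at 1.11 to 13.6 CPM, with slopes of −0.11 (SE 0.095), 0.072 (SE 0.073) and 0.11 (SE 0.053), and did not pass the test. CDKN2AIP and CDKN2AIPNL had slopes of 0.066 (SE 0.030) and −0.046 (SE 0.039).

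**Figure D5:**
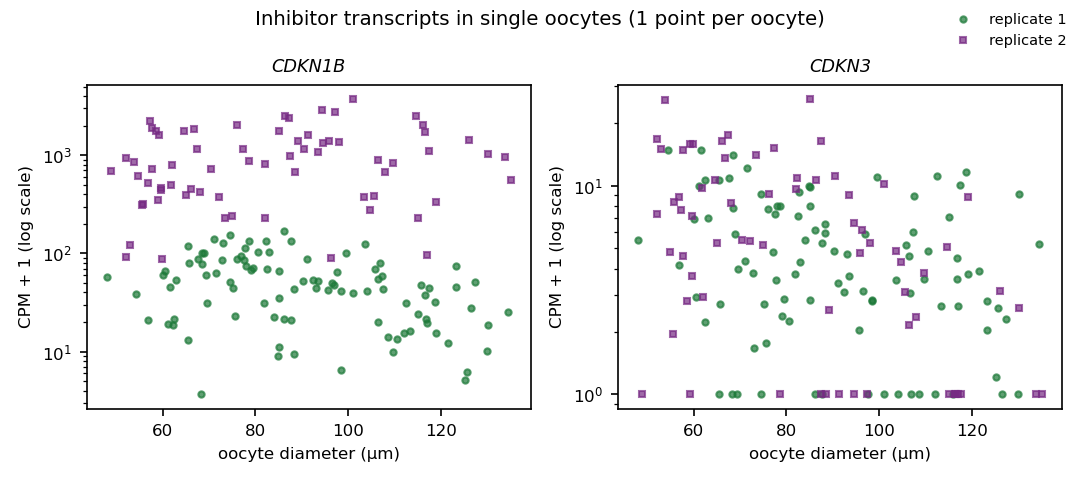
CPM + 1 (log axis) of CDKN1B and CDKN3 in each of the 165 oocytes against diameter (μm), replicate 1 as green circles and replicate 2 as purple squares. CDKN1B lies higher in replicate 2, with medians of 44.9 and 845 CPM and some overlap of single oocytes. CDKN3 had a negative slope in both, which passed the test in the fit of replicate 2 and not in that of replicate 1. Oocytes without a count lie at the lower edge.

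CDKN1B was the extreme of a difference between replicates that many genes showed. Of the 47 genes, 32 differed between the replicates, 16 higher in replicate 2 and 16 higher in replicate 1, beside 57.5% of all genes tested (edgeR). The sums of the replicates did not overlap for 10 genes, 21.3% beside 17.5% of all genes tested. Of these, CDKN1B, CCNC, CCNG2, CCNI, CDK12, CDK13 and CDK17 were higher in replicate 2, and CCNO, CDK5 and CDK9 in replicate 1. Besides CDKN1B, differences reached 3.64-fold (CDK13, log2 1.87, SE 0.17) and 3.68-fold in the other direction (CCNP, log2 −1.88, SE 0.20). A difference in slope between the replicates was called for 0 of the 14087 genes by edgeR, while 7 of the 47 and 1527 of all genes had an unadjusted p under 0.05. These 7 were CCNG1, CCNJ, CDKN1B, CCNT2, CDK9, CDK17 and CCNA1. Fitted alone, replicate 1 called 10 of the 47 (background 17.5%), of which 8 were among the 17, and replicate 2 called 14 (background 18.2%), of which 10 were.

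Between oocytes of < 70 μm and of ≥ 110 μm, 11 of the 47 genes rose and 5 fell, 34% beside 29.9% of all genes tested (13.6% rose and 16.2% fell). The comparison uses the same sums as the slopes and is no separate evidence, and 15 of the 16 genes were also called in the trend. The other was CCNE1, 1.7-fold higher in the larger oocytes (log2 0.77, SE 0.25, adjusted p = 0.0279, edgeR). CDK19 and CCNT2, which fell in the trend, did not pass the test here, at log2 −0.68 (SE 0.27) and −0.67 (SE 0.28). Other differences were 2.23-fold for CCNF, 2.21-fold for CDK14, 1.81-fold lower for CCNK and 1.83-fold lower for CCNO. The median over the 47 genes was 0.002 and over all genes −0.12 on the log2 scale.

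The successive comparisons of the study asked at which step of growth the transcriptome changes. Of the 47 genes, 0 were called between < 60 and 60–69 μm (background 0.0142% of genes), between the 80–89 and the 90–99 μm oocytes (0%), between < 70 and 70–79 μm (0.135%), between 70–79 and 80–99 μm (0%), between 80–99 and 100–109 μm (0.497%) and between 110–119 and > 120 μm (0.0071%) by edgeR. At an unadjusted p under 0.05 there were 2, 4, 6, 3, 10 and 8 of the 47, or 4.26%, 8.51%, 12.8%, 6.38%, 21.3% and 17%, beside 3.21%, 3.33%, 7.55%, 5.54%, 16.1% and 11.1% of all genes. By DESeq2, CCNQ was called between < 70 and 70–79 μm (background 0.575%), CCNF and CCNY between 80–99 and 100–109 μm (background 3.65%), and 0 in the other 4. Between < 70 and 70–79 μm CCNQ was 2.07-fold higher in the larger oocytes (log2 1.05, SE 0.22, adjusted p = 0.0818, edgeR), a step from 279.3 to 557.3 CPM in replicate 1 and from 141.6 to 229.4 CPM in replicate 2.

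Between 100–109 and 110–119 μm 1 of the 47 genes was called, beside 3.88% of all genes, and 13 had an unadjusted p under 0.05, 27.7% beside 26% of all genes. This was CDK20, a kinase that is also known from cilia, which was lower in the larger oocytes (log2 −1.38, SE 0.38, adjusted p = 0.0479, edgeR). Its CPM was 26.8, 29.9, 27.8, 29.4, 35.9, 63.4, 16.4 and 32.4 over all groups in replicate 1. The sums in replicate 2 were 16.7, 15.4, 20, 14.3, 10.8, 16.9, 10.5 and 12.6. In single oocytes of replicate 1 it was 15.9 to 102 CPM (median 38.4, 11 oocytes) at 100–109 μm and 5.66 to 33.5 CPM (median 16.2, 12 oocytes) at 110–119 μm, and in replicate 2 it was 8.45 to 23.9 (median 18.7) and 5.09 to 19.4 (median 9.74), with 7 oocytes each. Without the 1 oocyte with 52.9% of the counts of its sum, the difference was −0.91 and was not called (adjusted p = 0.127, edgeR). The call was lost in 15 of 24 alternative fits, and the difference ranged from −1.74 to −0.83 over them. The sums left out that ended it included the 100–109 μm (−0.83) and the 110–119 μm sum (−1.15) of replicate 1.

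The 12 others with an unadjusted p under 0.05, a share near the background, are given as values. CDKL2, CDKN2AIPNL, CCNH, CCNC, CDK4 and CCNE2 were higher at 110–119 μm, from 1.59-fold (CDK4) to 2.04-fold (CDKN2AIPNL), and CDK10, CCNF, CDK16, CCNO, CDK9 and CDK2 were lower, from 1.54-fold (CDK2) to 2.45-fold (CCNF). Their adjusted p-values were 0.063 to 0.188 (edgeR), so none of the 12 was called. Without the deepest oocyte the difference was 1.82-fold for CCNF and 1.71-fold for CDK10, and CDK2 (1.37-fold) and CDK9 (1.3-fold) had an unadjusted p of 0.0764 and 0.276 (edgeR). DESeq2 called 9 of the 47 at this step (background 14.5%), CDK20 among them. The group of the highest sum is given as a description, since the share over all genes was not counted. The < 60 μm sum holds 3 oocytes in replicate 1 and 18 in replicate 2. The highest sum was at 110–119 μm for 12 of the genes in replicate 1 and 8 in replicate 2, and at < 60 μm for 13 and 3, and 12 genes had their highest sum in the same group in both replicates. Those were CCNQ, CDK14, CDK4 and CDKL2 at 110–119 μm, CCNF, CCND3 and CCNP at 100–109 μm, CCNT1 and CDK5 at > 120 μm, CCNG1 and CDK5R1 at < 60 μm and CDK2 at 70–79 μm. Without the deepest oocyte there were 10, since CCNF and CCND3 were then highest at > 120 μm in replicate 1.

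Across the 165 single oocytes, the correlation of log2(CPM + 1) with diameter, with each replicate centred on its own mean, ran from r = −0.60 for CCNI to 0.64 for CCNQ. These are descriptions without a test, since oocytes share library batches, may share animals and differ in depth. CDKL2 (0.60), CCNE2 (0.58) and CDK7 (0.54) followed CCNQ, and in all, 10 genes had an r over 0.3 and 5 under −0.3. Spearman's rho was 0.65 for CCNQ and −0.61 for CCNI. In the oocytes of replicate 1 r was 0.72 for CCNQ and −0.58 for CCNI, and in replicate 2 it was 0.54 and −0.64. When each oocyte was thinned to 250000 counts, r changed by up to 0.18 (CDKN2D, from 0.35 to 0.17), and 8 genes had an r over 0.3 and 3 under −0.3, since CDKN2D, CCNE1, CCNT2 and CDKN3 then lay within these limits.

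The relatives that regulate or partner these genes, fixed as a list of 31, gave 9 that rose, 3 that fell and 19 that did not pass the test, beside the background of 33%. CDK1, the kinase of meiotic maturation, rose (slope 0.14, SE 0.042, adjusted p = 0.0163, edgeR), and so did its partner CCNB2 (0.18, SE 0.030). Its partner CCNB1 did not pass the test (0.052, SE 0.028), while CCNB3, a cyclin that acts at anaphase, fell (−0.20, SE 0.032). The activating phosphatase CDC25B rose (0.245, SE 0.038), as did CDC25A (0.12, SE 0.029), the CDK-binding subunits CKS1B (0.18, SE 0.028) and CKS2 (0.16, SE 0.029), CDC34 (0.12, SE 0.040), the kinase AURKA (0.096, SE 0.030) and its activator BORA (0.13, SE 0.036). CCNDBP1 and BTRC fell (−0.082, SE 0.027, and −0.074, SE 0.025). Of family members outside the chosen genes, CCND2 had a count in 4.85% of the 165 oocytes, CDKL3 in 17%, CDKN2B in 24.8%, CDKN2C in 27.3%, CDK6 in 27.9%, CDK5R2 in 32.1% and CDK18 in 57%. Of these 7 genes, 5 passed the filter and none was called (edgeR), with slopes from −0.24 for CDKL3 to 0.35 for CDK5R2 and 2 at an unadjusted p under 0.05.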

How the data were processed

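The files hold raw read counts per gene, 1 column per oocyte, as deposited. Per the methods, the authors' pipeline was Trim Galore (version 0.6.6) for trimming, HISAT2 for alignment to ARS-UCD1.2 and SeqMonk for counting. The treatment of strand, overlapping genes and reads with several alignments is not given in the sources used here. Each column was matched to a labelled oocyte. The deposited counts carry no batch correction. Gene IDs on more than 1 line, 6 of the 47 genes among them, were summed.

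Oocytes were grouped by their labels, and 165 of the 179 deposited, those in the study's sample table, were used. Counts were summed per size group and replicate (16 sums). Genes were kept by filterByExpr (minimum count 10, minimum total 15), which left 14087, and tested with edgeR (version 4.0.16) by the quasi-likelihood test after TMM normalization, on the mean diameter or on contrasts of the 8 groups, with replicate as a block, and with Benjamini-Hochberg adjustment over all genes (0.05). The SE is the log2 change divided by the square root of F. The sums of 1 replicate come from 1 library batch and deviated together over all 28 pairs of sums (correlations 0.398 to 0.694, median 0.579), so the replicate was used as the block. Correlations used log2(CPM + 1).

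Genes given with values in every sum were those called in the trend, up to 10 rising and 10 falling, and those called between size groups, up to 4 each way. CDKN1B was added after its values were seen. Alternatives were RLE factors, no filter, DESeq2 (version 1.42.0), single oocytes as units, all deposited oocytes with at least 100000 counts, 250000 counts per oocyte, the rank of the size group, no block, each replicate alone and each sum left out. The fit without the deepest 100–109 μm oocyte, the difference in slope between replicates and the difference between replicates were added after seeing the data. The genes, their roles and the lists were chosen with earlier results of these data known. The fits were tested on simulated data. Of the 48 genes found by the rule, 1 is not reported here. The 47 others all matched the RefSeq table (ARS-UCD2.0), used for gene order only.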

Additional observations from a re-analysis of the deposited data

Results flagged for a closer look

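In the 5 deposited oocytes used in no comparison, with totals of 10 to 63163 counts, 23 of the 47 genes had more than 3 counts, the limit that a count of 0 allows. All 47 genes together had 354 counts there. These oocytes are outside the study's sample table and have no counterpart in the comparisons.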

How the results depend on the processing

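Of the 17 slopes given in full, 1 changed sign in the 26 alternatives, that of CDK4 with all deposited oocytes (−0.013, cause not tested), and CCNE2, CCNF and CCNQ were called in each of them. Of the 47 genes, the trend called 17, 7 without the replicate block (background 15.6%) and 28 with single oocytes as units (background 57.7%). It called 10 in replicate 1 alone (background 17.5%) and 13 to 20 when a sum was left out. Between < 70 and ≥ 110 μm 16 were called, 2 without the replicate block (background 4.93%), 27 with single oocytes as units (background 56.3%) and 12 to 17 when a sum was left out. The share of all genes called with a sum left out is given only for the step from 100–109 to 110–119 μm. The other ranges over such fits are therefore no result about the 47. Without the block 10 of the 17 slopes were not called, and the replicate pairs the sums. Between < 70 and 70–79 μm, 0 became 1 with DESeq2, 1 with no filter (background 0.334%), 6 with single oocytes (background 7.8%) and 0 to 1 when a sum was left out. Between 80–99 and 100–109 μm, 0 became 2 with DESeq2, 1 with no filter (background 2.02%) and 0 to 1 when a sum was left out. Between 110–119 and > 120 μm, 0 became 2 with single oocytes (background 4.71%) and 0 to 1 when a sum was left out, the 1 without the 110–119 μm sum of replicate 2. Between 100–109 and 110–119 μm, 1 became 0 without the block (0 of all genes), 9 with DESeq2, 6 with no filter (background 7.33%), 16 with single oocytes (background 37%), 0 with all deposited oocytes (background 0.0142%), 0 without the deepest oocyte (background 3.39%) and 0 to 8 when a sum was left out, the 8 without the 100–109 μm sum of replicate 2 (background 9.94%). Without either sum of replicate 1 in this comparison 0 of all genes were called, so that 0 says nothing of the 47. The cause of these changes was not tested. Single oocytes are not independent replicates, since the animals are not named. Genes such as CDKN3 and CDK5R1, with 4 and 12 counts in their lowest sums, are limited by depth.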
